A study of Homo sapiens with 41 samples.

Results

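Elongin A CUT&RUN peaks with a summit more than 1 kb and at most 10 kb past the end of the nearest protein-coding gene were taken from the goat antibody peak list of DLD1 cells. A summit also had to lie outside every protein-coding gene and more than 1 kb from the transcription start site (TSS) of any annotated transcript. These conditions use position alone, and 283 of the 8720 peaks (3.25%) met them. The comparison set was the 293 peaks (3.36%) at the same distances before gene starts, under the same exclusions. Neither set was chosen by peak height, width or sequence. Gene ends and starts are the outermost ones that GENCODE gives for a gene on hg19.

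Elongin A is the transcriptionally active subunit of the Elongin complex, which can raise the rate of elongation by RNA polymerase II (RNAPII) in vitro. It also serves in a ubiquitin ligase that acts on stalled RNAPII. After the poly(A) site has been transcribed and the RNA cleaved, RNAPII keeps transcribing into the sequence past the gene end until it terminates, so a factor that travels with RNAPII could be found there. The same sequence can also hold enhancers and unannotated transcripts, which position alone does not separate.

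DLD1 is a human colon cancer cell line. The cells were wild type, received no siRNA, grew in RPMI medium with fetal bovine serum and were fixed with formaldehyde. CUT&RUN, in which a nuclease is directed by an antibody to cut out the DNA around a bound protein, was run with 2 goat antibody replicates against a goat IgG control. A second list came from 1 mouse antibody sample with its IgG control (2338 peaks), and the third from 1 ChIP-seq sample with input (186 peaks). Each list is a single call by the authors' MACS2, so the goat antibody replicates cannot be separated, no value below has a replicate error, and the depth is unknown. Fold enrichment is the signal at the summit over the local control background. Intervals are at 95% and cover counting error only, since peaks of 1 list are not replicates, and no p-value is given. No sample lacking Elongin A enters these lists.

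The reference sequence (GRCh37, plus strand) within 100 bp on either side of the summit is shown for 5 peaks, named by the nearest gene. TBX3 had the highest fold enrichment, and HSPA8 and TNS4 had wide peaks that overlapped ChIP-seq peaks. CDX2 lies past the gene of an intestinal regulator, and AC093323.1 was the strongest peak with an AP-1 word. Capitals mark matches to the 9 words searched, on either strand.
TBX3 (chr12:115106249-115106449): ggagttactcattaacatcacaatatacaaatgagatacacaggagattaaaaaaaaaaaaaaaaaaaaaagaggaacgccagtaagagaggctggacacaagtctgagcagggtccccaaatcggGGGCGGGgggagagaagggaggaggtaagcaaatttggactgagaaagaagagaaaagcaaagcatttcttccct
HSPA8 (chr11:122925237-122925437): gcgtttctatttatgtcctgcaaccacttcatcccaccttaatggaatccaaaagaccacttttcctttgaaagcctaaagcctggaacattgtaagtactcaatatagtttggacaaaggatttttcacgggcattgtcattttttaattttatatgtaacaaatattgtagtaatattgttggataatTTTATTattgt
TNS4 (chr17:38629211-38629411): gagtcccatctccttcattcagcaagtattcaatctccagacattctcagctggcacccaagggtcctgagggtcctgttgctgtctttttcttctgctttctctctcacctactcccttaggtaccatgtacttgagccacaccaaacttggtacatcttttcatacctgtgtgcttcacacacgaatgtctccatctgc
CDX2 (chr13:28530592-28530792): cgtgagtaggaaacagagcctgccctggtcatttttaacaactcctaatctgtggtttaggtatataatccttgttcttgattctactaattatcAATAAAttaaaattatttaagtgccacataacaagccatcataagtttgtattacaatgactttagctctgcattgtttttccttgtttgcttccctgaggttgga
AC093323.1 (chr4:6690815-6691015): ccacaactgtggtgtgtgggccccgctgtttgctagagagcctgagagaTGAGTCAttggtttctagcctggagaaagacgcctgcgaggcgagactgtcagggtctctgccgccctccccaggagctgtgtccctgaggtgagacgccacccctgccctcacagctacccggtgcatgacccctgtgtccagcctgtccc
TNS4 held none of the 9 words in this window. TBX3 held GGGCGGG, the KLF/SP word, and AC093323.1 held TGAGTCA, a form of the AP-1 word. The capitals at HSPA8 and CDX2 are AATAAA, which is also the poly(A) signal, read on either strand. GC content ran from 31.8% at HSPA8 to 62.7% at AC093323.1.

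Sequence past gene ends held 3.57 peaks per eligible Mb (95% interval 3.17 to 4.01), and sequence before gene starts held 3.27 (2.91 to 3.67). Eligible sequence is ungapped, nearest to the gene in question and free of TSSs within 1 kb. It came to 79.3 Mb past the ends of 13040 genes and 89.6 Mb before the starts of 13440 genes. The ratio of the densities was 1.09 (0.923 to 1.29), an interval that includes 1. When only TSSs of protein-coding genes were used to leave out peaks and sequence, the ratio was 1.18 (1.01 to 1.37), whose interval lies above 1, so whether the side past ends was the denser depends on this choice. In gaps between neighbouring genes of the same strand, where 1 side is a gene end and the other a gene start, 178 peaks lay past ends and 164 before starts. The densities there were 3.79 and 3.49 per Mb, with a ratio of 1.08 (0.872 to 1.35). With only peaks of at least 5-fold enrichment this ratio fell to 0.868 (0.589 to 1.28), so its direction is not settled. The other 105 peaks past ends lay in gaps between convergent genes, at 3.26 per Mb.

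Both flanks of genes were richer in peaks than sequence far from them. Sequence over 10 kb from any protein-coding gene held 1.33 peaks per Mb, and the density past ends was 2.67 times that (2.35 to 3.03). The peaks up to 1 kb past gene ends, which number 102, were denser still at 7.93 per Mb. Going outward from the gene end, the density was 3.99 per Mb from 1 to 4 kb (128 peaks), 3.47 from 4 to 7 kb (89 peaks) and 3.06 from 7 to 10 kb (66 peaks). The density of the innermost bin was 1.30 times that of the outermost (0.961 to 1.78), an interval that includes 1. With gene ends taken from basic transcripts it was 1.35 (1.01 to 1.82), just above 1. Whether the interval over all genes excludes 1 thus depends on which ends are used. Before gene starts the same ratio was 1.61 (1.2 to 2.18), from 4.28 down to 2.65 per Mb. The difference between these 2 ratios was not tested. Past genes with a peak within 1 kb of their start, the density was 15.7 per Mb at 1 to 2 kb (8.12 to 27.5; 12 peaks). At 9 to 10 kb it was 2.47 (0.0626 to 13.8; 1 peak). Past the other genes these densities were 3.66 (2.62 to 4.99) and 2.97 (1.79 to 4.64). Before the starts of genes with such a peak they were 17.7 (9.13 to 30.9) and 4.72 (0.572 to 17.1).

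**Figure D1:**
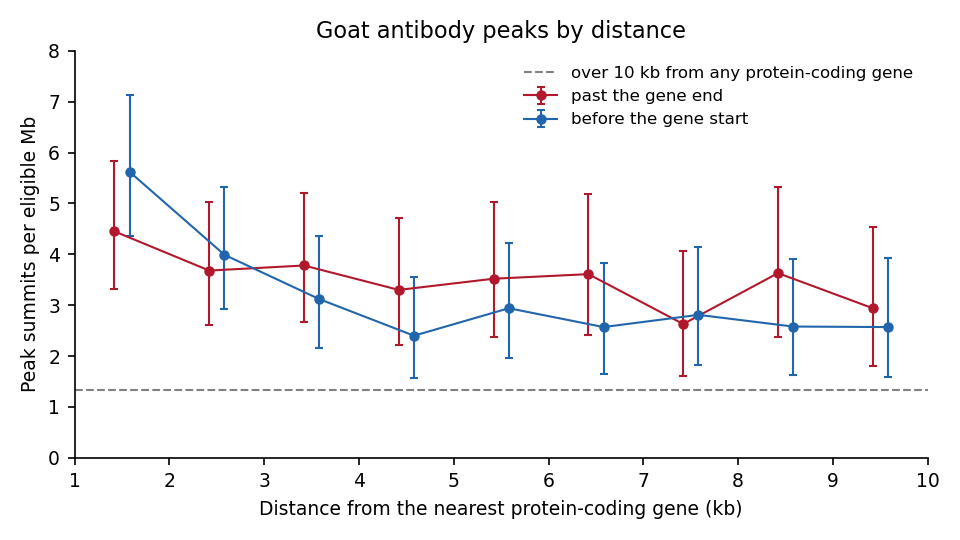
Density of goat antibody peak summits per eligible Mb (vertical axis) by distance from the nearest protein-coding gene in 1 kb bins (horizontal axis, kb), past gene ends and before gene starts. Bars are exact Poisson 95% intervals, and the dashed line is the density over 10 kb from any protein-coding gene. The densities past ends run from 4.45 per Mb at 1 to 2 kb to 2.94 per Mb at 9 to 10 kb, with overlapping intervals throughout, and all lie above 1.33.

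The distance limits cut through a continuous series of peaks. Just short of 1 kb was the peak past ACAD8 (945 bp, fold enrichment 4.14). The nearest accepted peaks were those past TEAD3 (1007 bp, 9.77) and HSP90AA1, an inducible HSP90 gene (1007 bp, 3.9). At the far limit the last accepted were TXNDC2 (9959 bp, 6.34) and SLC12A2 (9939 bp, 7.77), and the next outward were SYDE2 (10021 bp, 4.42) and S100A10 (10079 bp, 4.03). A further 64 summits in the distance window were left out because the TSS of a gene that is not protein-coding lay within 1 kb. With TSSs of protein-coding genes alone, 347 peaks met the conditions.

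The strength of the peaks was close to that of the list as a whole. Fold enrichments between 2.33 and 13.8 were measured, the median was 4.44 (4.19 to 4.66), and the quartiles were 3.63 and 5.38. The medians were 4.32 over all peaks, 4.22 before gene starts, 4.28 over 10 kb from genes and 4.75 in the first 1 kb past ends. Of the 283 peaks, 63 (22.3%, 17.8 to 27.5) were in the 20.1% of all peaks with the highest fold enrichment, a share near that background. The median −log10 q-value was 4.88, and 252 of the peaks kept a q-value under 0.01.

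Width separated some of the positions more clearly than height. The median width past ends was 363 bp, with quartiles of 271 and 540 bp, and 16 peaks (5.65%, 3.51 to 8.99) reached 1 kb or more, against 4.51% of all goat antibody peaks. In the first 1 kb past ends 18.6% were that wide (12.3 to 27.3), while before gene starts 2.73% were (1.39 to 5.29). Over 10 kb from genes the share was 2.08% (1.5 to 2.86), below the interval of the peaks past ends. Within 1 kb of a TSS it was 5.93% (5.12 to 6.86) and inside protein-coding genes 4.21% (3.59 to 4.93). Both shares lie within the interval of the peaks past ends, and the interval before gene starts overlaps it. The median fold enrichment of the 16 wide peaks was 7.65 (4.59 to 8.78), against 4.37 (4.17 to 4.61) for the 267 narrower peaks, although 6 of the 16 were between 3.9 and 5.03. Of the 283 peaks 3, all of them wide, reached back over the gene end into the gene.

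**Figure D2:**
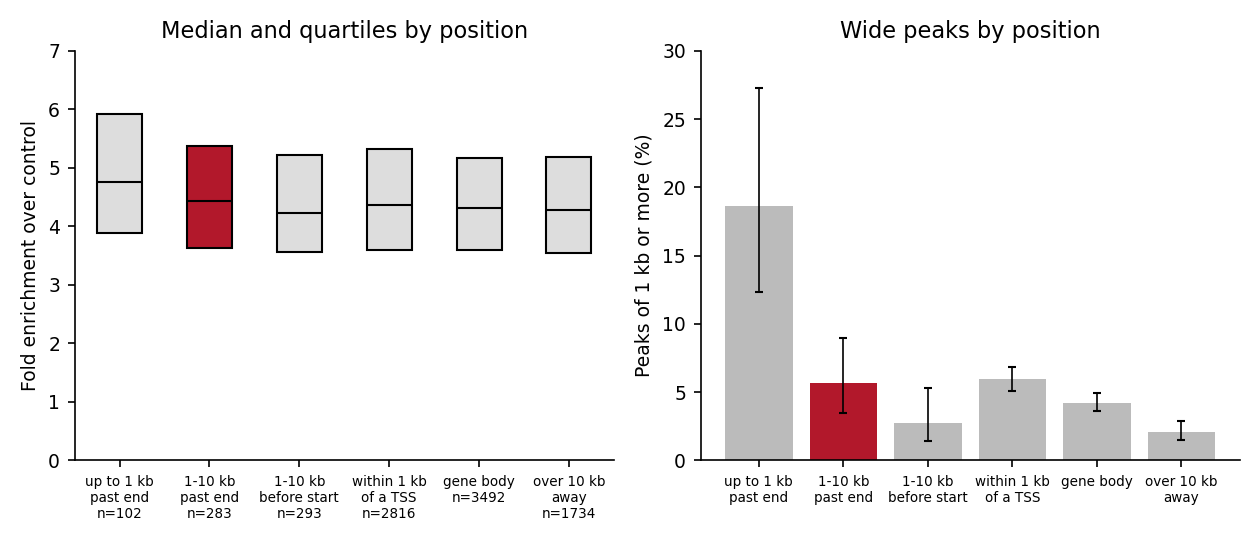
Left, median (line) and quartiles (box) of fold enrichment over control by position of the summit; right, share of peaks of 1 kb or more in percent, with Wilson 95% intervals. The boxes of all 6 positions share the range from 3.88 to 5.17, whereas the share of wide peaks is 18.6% just past gene ends, 5.65% at 1 to 10 kb past ends and 2.73% before starts.

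The strongest peak past a gene end was narrow. It lay 1.71 kb past TBX3, which encodes a T-box transcription factor, at chr12:115106234-115106534, and had a fold enrichment of 13.8 over 301 bp. No peak was called in TBX3 itself, at its start or at its end. The peak 8.12 kb past SLC1A4, a neutral amino acid transporter, at chr2:65258776-65259624 reached 10.8 and lay inside the long noncoding RNA (lncRNA) gene LINC02245. The peaks past COQ2, an enzyme of coenzyme Q synthesis (5.52 kb, 8.96), and FNDC1, which encodes a fibronectin type III domain protein (7.51 kb, 8.80), were likewise 372 and 466 bp wide and had no peak in the gene. These 4 peaks were strong, isolated from the nearest gene's own peaks, and absent from the mouse antibody and ChIP-seq lists.

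The wide peak close behind RPL3, a gene of the large ribosomal subunit, had the opposite form. It was 3336 bp wide, of which 381 bp lay inside RPL3, with its summit at 1.60 kb and a fold enrichment of 9.64, and a 210 bp peak followed at 3.65 kb with 4.01. The promoter peak of RPL3 was lower, at 4.31, so the tallest signal past the end was more than 2-fold above it. The wide peak overlapped a mouse antibody peak, with a fold enrichment in that list of 4.73.

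HSPA8, the constitutive HSP70 chaperone gene, had 3 peaks past its end. Their fold enrichments were 8.57 at 2.86 kb (2043 bp wide, chr11:122925224-122927266), 3.68 at 3.97 kb and 3.26 at 4.62 kb. The gene also had a peak at its end of 6.42 and a promoter peak of 2.90. All 3 peaks overlapped ChIP-seq peaks. The widest overlapped ChIP-seq peaks with fold enrichments in that list of 5.34 and 5.68, and the others overlapped peaks of 6.20 and 5.37. The widest also overlapped a mouse antibody peak of 5.92. HSPA8 was thus the only gene whose peaks past the end included 1 found in all 3 lists. NCL, which encodes nucleolin, FTSJ1, an RNA methyltransferase gene, and S100A10, which encodes the annexin A2 partner p11, also had 3 peaks each, and no gene had more. They are named because of these counts. NCL had a peak of 17.6 at its end followed by 3.47 at 2.79 kb, 7.78 at 4.50 kb and 3.93 at 5.66 kb, although the sequence at the summit of the last occurs 137 times in the genome.

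TEAD3 encodes a TEAD family transcription factor, and the summit past its end (2409 bp wide, 9.77) lay in a gap of 2.81 kb to the convergent gene RPL10A. The peak reached back over the gene end and had 829 bp inside TEAD3. SYAP1 (8.78, 1191 bp) and SNX6, a sorting nexin gene (8.75, 1329 bp), had wide peaks at 6.22 and 5.97 kb and none at their own starts or ends.

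**Figure D3:**
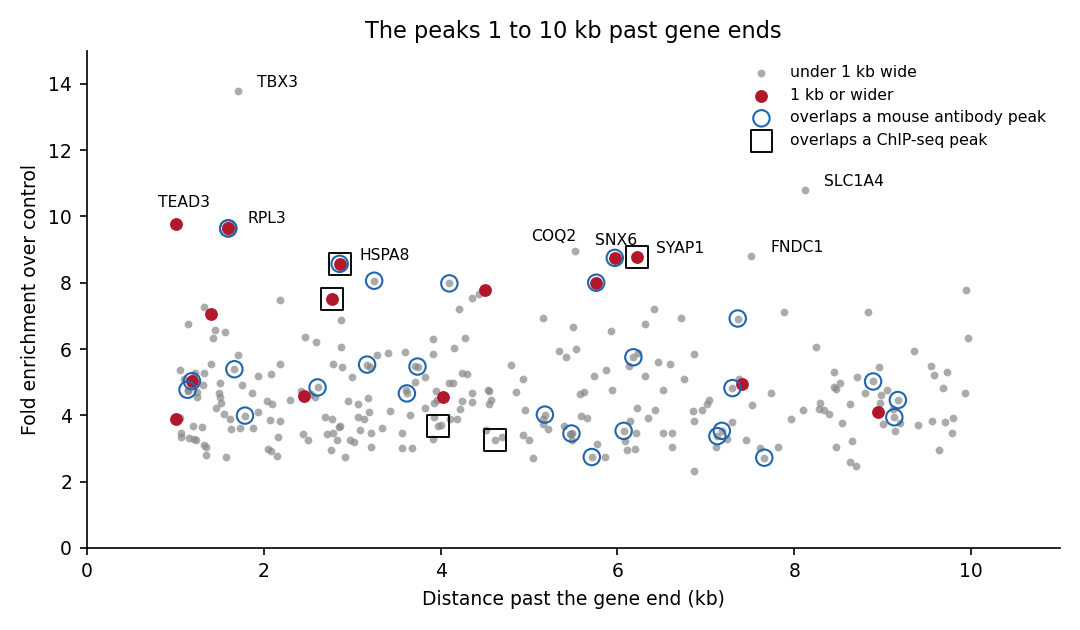
Each of the 283 peaks by distance past the gene end (horizontal axis, kb) and fold enrichment over control (vertical axis). Filled red points are 1 kb or wider, blue rings overlap a mouse antibody peak and black squares overlap a ChIP-seq peak, and 9 of the 10 strongest are labelled. Peaks above 7-fold occur from 1.01 kb (TEAD3, 9.77) to 9.94 kb (SLC12A2, 7.77).

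Peaks past ends were concentrated behind genes that had a peak at the end itself. A gene end peak, with a summit from 100 bp before to 1 kb after the end, was present at 107 of the 13040 genes (0.821%), yet these genes held 22 of the 283 peaks past ends. Their density was 43.8 per Mb (27.5 to 66.4), against 3.31 (2.92 to 3.74) past the other genes, a ratio of 13.2 (8.15 to 20.5). The 22 peaks lay behind 17 genes, among them HSPA8 and NCL with 3 each. Some of them, as past HSPA8, lay within 1 kb of each other. With peaks within 1 kb of each other merged the ratio was 5.04 (2.0 to 10.5), and with 1 peak counted for each gene it was 11.5 (6.59 to 18.8), the latter an alternative added after the values were seen. Before the starts of genes with an end peak, the density was 10.7 per Mb from 10 peaks at 7 of 157 genes. Before the starts of other genes it was 3.19, a ratio of 3.35 (1.59 to 6.26), so the start side was denser as well. The ratio of the densities past the ends and before the starts of such genes was 4.09 (1.86 to 9.69). It covers 107 genes past ends and 157 before starts, and was not computed with peaks merged. The peak past the end was lower than the gene end peak in most cases, and exceeded it in 4 of 22.

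A promoter peak, with a summit within 1 kb of the gene start, was present at 869 of the 13040 genes (6.66%). Past the ends of these genes the density was 8.84 per Mb (6.4 to 11.9; 43 peaks), and past the others 3.22 (2.83 to 3.66; 240 peaks), a ratio of 2.74 (1.93 to 3.80). With a fold enrichment of at least 5 for every peak the ratio was 1.12 (0.134 to 4.16), and with that threshold on the peaks past ends alone, tried after the values were seen, it was 3.14 (1.71 to 5.42). Before gene starts the ratio was 2.80 (1.96 to 3.91). A promoter peak was therefore accompanied by more peaks on both sides of the gene, and not detectably more on the end side. Where a gene had both, the peak past the end had the higher fold enrichment in 30 of 43 cases. In all, 129 of the 283 peaks (45.6%, 39.9 to 51.4) lay past a gene with a peak inside or at its start or end. The other 154 (54.4%, 48.6 to 60.1) lay past a gene with none. Before gene starts, 109 of 293 (37.2%, 31.9 to 42.9) lay by a gene with such a peak, and the 2 intervals overlap. The share of all genes with any such peak was not counted.

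The ratio differed with gene length. Genes were divided into 3 equal groups at 15.3 and 57.7 kb. Past the ends of short genes with a promoter peak the density was 22.7 per Mb (15.2 to 32.6), from 29 peaks at 21 of 274 genes. Short genes without a promoter peak had 2.52 (1.92 to 3.25). The ratio was 9.0 (5.56 to 14.3), and it was 7.26 (4.16 to 12.2) with 1 peak for each gene and 7.47 (4.30 to 12.5) without ribosomal protein and histone genes. For genes of middle length the ratio was 0.685 (0.218 to 1.65), from 5 peaks past genes with a promoter peak, and for long genes 1.62 (0.717 to 3.23), from 9. The interval for short genes lay above both of the others. Before the starts of short genes with a promoter peak the density was 10.5 per Mb (5.72 to 17.6), so the end side was 2.17 times as dense as the start side (1.11 to 4.44). Genes of middle length with a promoter peak went the other way, with a ratio of the end side to the start side of 0.325 (0.0931 to 0.928; 5 and 16 peaks), and for long genes it was 0.786 (0.288 to 2.09). The 274 genes include neighbours that share a cluster, so the peaks are not independent, and these alternatives were added after the values were seen.

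**Figure D4:**
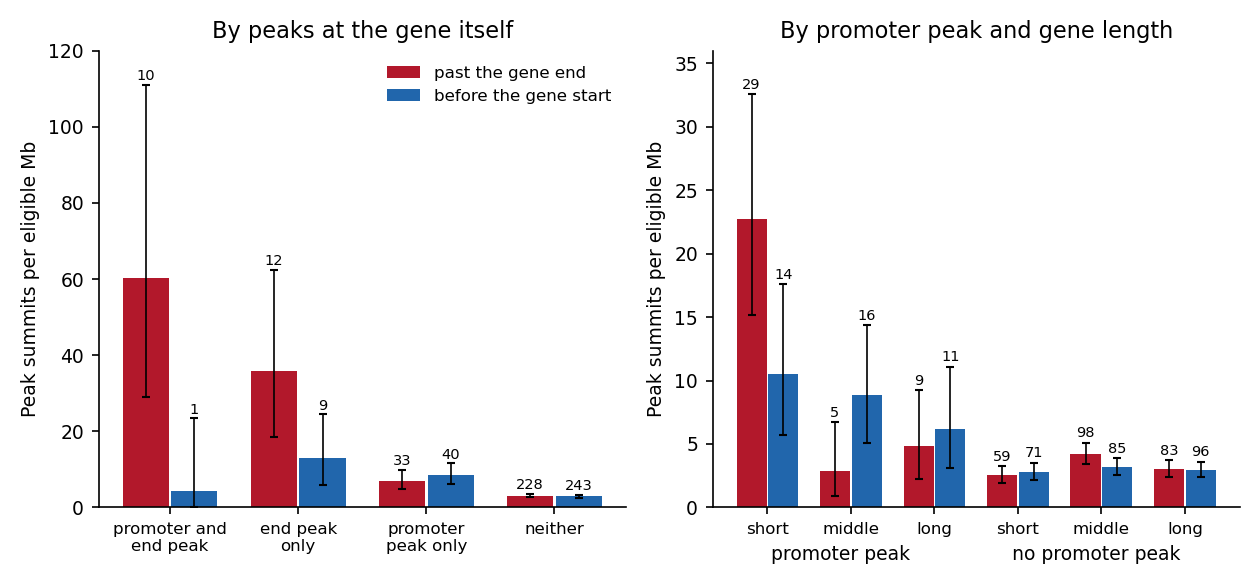
Peak summits per eligible Mb (vertical axes) past gene ends and before gene starts; left, genes grouped by whether they have a promoter peak, a gene end peak, both or neither; right, genes grouped by promoter peak and by length (short, up to 15.3 kb; long, over 57.7 kb). Error bars are exact Poisson 95% intervals and the numbers above bars are peak counts. The density past ends reaches 60.2 per Mb behind genes with both peaks and 22.7 behind short genes with a promoter peak, against 3.08 behind genes with neither. The 60.2 (28.9 to 111) rests on 10 peaks behind 8 genes, HSPA8 among them with 3. In very short genes the start and end windows overlap, so the same summit can count as both, as may hold for H2BC17 (0.467 kb long, 3.74 for both).

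Among the 21 short genes with a promoter peak and a peak past the end were ribosomal protein genes (RPL3, RPS16 and RPL39 among them), the translationally controlled protein gene TPT1, the splicing and RNA-binding protein genes SNRPB and HNRNPK, the chaperone gene HSPA8 and the stress response regulator ATF4. These are named as part of that count, which also held SOCS2, SLC25A10, FTSJ1 and FOXA1, among others. The peak past RPS16, of the small ribosomal subunit, was 7.49 at 2.18 kb, above its promoter peak of 4.61. That past RPL39 was 6.74 at 1.14 kb, against 5.91 at the promoter. Past SNRPB, a core spliceosome protein gene, it was 6.57 at 1.45 kb against 5.05. HNRNPK went the other way, with 3.20 at 3.02 kb and 6.61 at the promoter. So did others of the 21, among them FOXA1 (3.61 against 4.53), EIF4A3 (2.74 against 3.91) and H3C2 (3.33 against 4.83).

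Of 12 gene lists, 10 had at least 1 gene with a peak past the end, and the share over all 13040 genes was 1.91%. Among cytosolic ribosomal proteins 5 of 43 genes with sequence in the window had one (11.6%, 5.07 to 24.5), with 7 peaks at 31.4 per Mb. SR and hnRNP proteins had 3 of 17 (17.6%, 6.19 to 41), through the splicing regulator TRA2B (5.85 at 6.86 kb), the SR protein gene SRSF5 (5.55 at 1.41 kb) and HNRNPK. The translation factor list had 3 of 21 (14.3%, 4.98 to 34.6). They were the elongation factor gene EEF1B2 at 7.27, the initiation factor gene EIF5 at 3.93 and TPT1, the translationally controlled protein gene, at 5.03. Glycolysis had 2 of 7 (28.6%, 8.22 to 64.1), the enolase gene ENO1 (6.37 at 2.47 kb) and the glucose transporter gene SLC2A1 (5.26 at 2.08 kb). The lower bounds of these 4 lists were above 1.91%, as were those of the stress response, histone, colon and blood cell lists described next, the last with 1 gene only. The lists were chosen with earlier results of these data known, and the shares describe these genes without setting them apart from others of like length or expression.

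The immediate early and stress response list had 3 of 33 genes (9.09%, 3.14 to 23.6): HSPA8, HSP90AA1 and the HSP40 gene DNAJB1. Apart from these chaperone genes, no gene of the list had such a peak, its transcription factors included. These factors were not counted separately, so no upper bound is given for them. The stress response regulator ATF4, which was not in this list, did have a peak past its end. Histone genes, which end in a stem-loop in place of a poly(A) tail, had 3 of 42 (7.14%, 2.46 to 19), H3C2, H2AC15 and H2BC17, all with low values between 3.11 and 3.33. Because histone genes stand close together, these peaks lie near other histone genes too. Colon epithelial identity had 2 of 19 (10.5%, 2.94 to 31.4), the keratin gene KRT8 (7.07 at 1.41 kb, 1855 bp wide) and S100A10, whose 3 peaks were between 3.02 and 3.82. Among WNT targets and intestinal regulators 1 of 27 had one (3.70%, 0.657 to 18.3). It was CDX2, the intestinal homeobox gene, with 7.54 at 4.36 kb and a gene end peak of 4.32. Actins and tubulins had 1 of 11, ACTB, with 4.34 at 2.09 kb and 4.21 at 6.22 kb, of which the second has a summit sequence found 26 times in the genome.

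No gene for a cleavage, polyadenylation or termination factor had a peak past its end, 0 of 17, which allows a share of up to 17.6%. The lists of genes that mark other cell types gave 0 of 7 for hepatocytes, which allows up to 42.9%, and 1 of 9 (11.1%, 1.99 to 43.5) for blood cells, the T cell receptor component CD3E with 3.47 at 5.49 kb. A peak in this window thus also occurs past a gene that colon cells are not known to use.

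**Figure D5:**
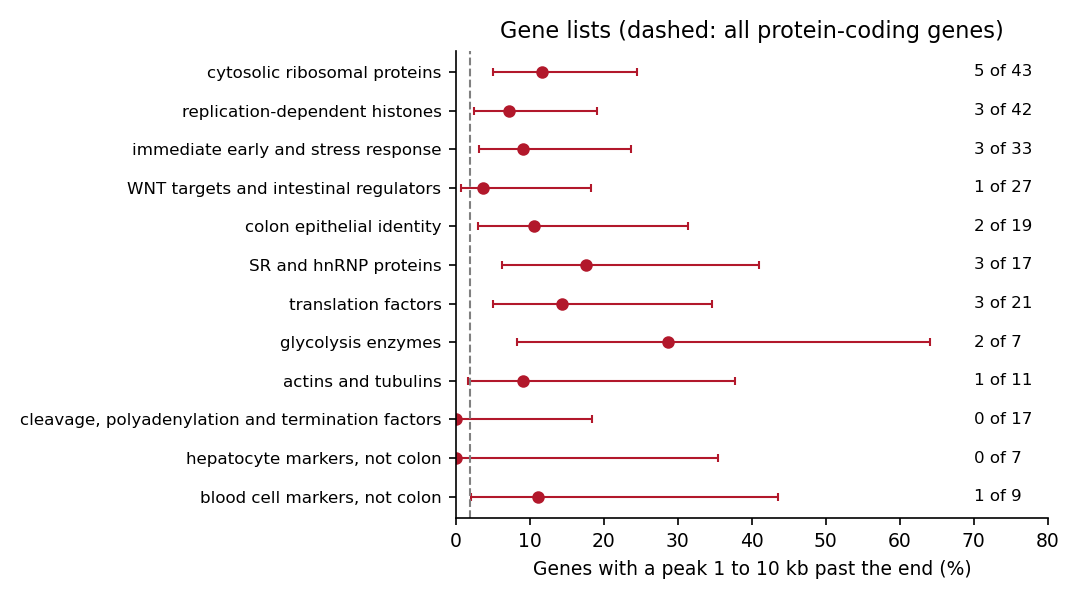
Share of the genes of each list that have a peak 1 to 10 kb past the end (horizontal axis, percent), with Wilson 95% intervals and the counts at the right. The dashed line is the share over all protein-coding genes with sequence in the window, 1.91%. The points run from 0 of 17 for cleavage, polyadenylation and termination factors to 2 of 7 for the glycolysis list, which includes the transporter gene SLC2A1.

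The mouse antibody list gave an independent set of positions. Of the 283 peaks past ends, 28 (9.89%, 6.93 to 13.9) overlapped a mouse antibody peak by at least 1 bp, against 8.33% of all goat antibody peaks and 7.51% (5.01 to 11.1) of the peaks before starts. The shares could not be told apart at these counts. Of the 16 wide peaks 6 did, and wide peaks offer more sequence to overlap. Among narrow peaks shared by both antibodies were those past TRIM44 (212 bp, 7.98 with the goat antibody and 7.05 with the mouse antibody) and FOXD1, a forkhead factor gene (310 bp, 6.92 and 4.99), which are named for this overlap. The mouse antibody list itself had 65 summits past gene ends (0.820 per Mb) and 95 before starts (1.06 per Mb), a ratio of 0.773 (0.555 to 1.07). Its 65 summits were denser past genes with a goat antibody promoter peak than past others, with a ratio of 2.46 (1.07 to 5.01) from 9 peaks. With the mouse antibody list's own promoter peaks the ratio was 3.27 (0.864 to 8.82) from 4 peaks, an interval that includes 1. For gene end peaks of that list, 0 of the 65 lay past a gene with one. The interval of that ratio ran from 0 to 32.6, so it cannot be told apart from 1 or from the 13.2 of the goat antibody list.

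The ChIP-seq list is short, and 5 peaks past ends overlapped it (1.77%, 0.757 to 4.07), against 0.837% of all goat antibody peaks. They lay past 3 genes: HSPA8 with 3, SYAP1 (8.38 in the ChIP-seq list) and TNS4, a tensin gene (7.52 at 2.77 kb, 2592 bp wide, with 5.92 in the ChIP-seq list). None of the 293 peaks before starts overlapped a ChIP-seq peak, which allows up to 1.02%. The ChIP-seq summits themselves fell 11 times past ends and 1 time before starts under the same conditions. Of the 11, 4 lay behind HSPA8 and 2 behind ROCK1, so the 11 summits came from 7 genes.

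Another summit of the goat antibody list lay within 5 kb of 35.7% of them (30.3 to 41.4), compared with 29.3% of all peaks, 26.6% (21.9 to 32) of those before starts, 50.0% (40.5 to 59.5) of those up to 1 kb past gene ends and 19.5% (17.7 to 21.4) of those over 10 kb from genes. Within 2 kb the share was 18.4%, and it was 18.4% of all peaks too. The 283 peaks lay past 249 genes, of which 219 had 1 peak, 26 had 2 and 4 had 3. They were found on 23 chromosomes, with the highest densities on chromosomes 22 (7.94 per Mb, 4.1 to 13.9), 14 (7.66, 4.54 to 12.1) and 17 (6.26, 3.88 to 9.57), and the lowest among chromosomes with any on chromosome 18 (1.29, 0.156 to 4.65).

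A summit in an lncRNA gene was found for 44 peaks (15.5%, 11.8 to 20.2), and 14.6% of the eligible sequence past ends is annotated so. The lncRNA gene was on the opposite strand to the protein-coding gene for 33 of the peaks and on the same strand for 11. Before gene starts these counts were 44 and 11. The share of eligible sequence in lncRNA genes of each strand was not measured. For 15 peaks (5.30%) the 32 bp at the summit occurs more than 1 time in the genome, compared with 3.03% of all peaks, and 268 remained when these were left out.

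The mean GC content within 100 bp of the summit was 45.6%, the same as over all goat antibody peaks, and the mean over all windows of that size past gene ends was 43.5%. The AP-1 word TGANTCA, the recognition sequence of the FOS and JUN factors, occurred in 21 of the 283 (7.42%, 4.90 to 11.1), against 9.07% of all goat antibody peaks, 6.83% of peaks before starts, 11.9% of peaks over 10 kb from genes and 5.95% of all windows past gene ends. None of the 22 peaks behind genes with a gene end peak held it, which allows up to 13.6%. Within 50 bp of the summit the share was 2.83%, for which no background of that size was measured. Within 100 bp, the word was therefore not detectably more frequent at these peaks than over all windows past gene ends.

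Of the other words, GGGCGGG (KLF/SP) was in 2.83% of the peaks (1.44 to 5.48), above the 1.24% of all windows past ends and far below the 10.7% of peaks near a TSS. AGGGGGC (CTCF core) was in 3.89% (2.18 to 6.82) against 2.15%, and for these 2 words the interval lay above the share of all windows. Over all goat antibody peaks the shares were 4.50% and 3.35%, and before gene starts 4.1% and 2.73%, all within the intervals of the peaks past ends. AATAAA, at 20.8% (16.5 to 26) against 28.1%, was the only word with an interval below the share of all windows. Its share over all goat antibody peaks was 25.3%, within that interval, and before gene starts 26.3%, just above it. The intervals of the other words included their shares of all windows. GGAATG (TEAD) was in 14.1% against 10.7% and the word for GATA factors, AGATAA, in 14.8% against 12.4%. CTTTGAT (TCF/LEF) was in 2.47% against 2.93%, TGTTTAC (FOX) in 2.47% against 2.66% and CCGGAAG (ETS) in 0.353% against 0.550%. Both strands were searched, and a match is a string of letters and not a bound site.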

How the data were processed

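Elongin A peak lists of DLD1 cells were read as deposited. According to the methods and the submitters' processing notes, read pairs were mapped by the authors to hg19 (Bowtie2), duplicates were discarded, and MACS2 called peaks with its default settings over IgG or input. The deposited fold enrichment is a ratio over local control background, and the deposited −log10 q-value is that of the authors' MACS2. Replicates were pooled by the authors before deposit and depth is unknown.

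Summits were placed against gene-level ends of GENCODE release 44 lifted to GRCh37 (20163 protein-coding genes). Eligible bases were counted after removing gaps and 1 kb either side of every TSS. Densities have exact Poisson intervals, ratios exact conditional (Clopper-Pearson) intervals and shares Wilson intervals, all at 95%. A floor of 3 counts was used for shares of 0. Words were searched within 100 bp of summits and in adjoining windows of the same size. The procedures were tested on simulated positions. Python 3.11.15, numpy 2.4.6, scipy 1.17.1, pandas 2.3.3, statsmodels 0.14.6, pysam 0.24.0, matplotlib 3.10.9 and samtools 1.23.1 were used.

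The peak class and the lists were chosen with earlier results of these data known. Genes named are those of the 10 strongest peaks, peaks overlapping ChIP-seq peaks, up to 3 peaks for each gene list and those nearest the distance limits. Others are marked in the text as named for their values. The series' RNA libraries and its RNAPII ChIP-seq were not analysed here, so transcription past these genes was not measured. A few of the peaks and genes that these rules select are not reported here.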

Additional observations from a re-analysis of the deposited data

How the results depend on the processing

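Of 47 alternatives, 40 left a value within the 95% interval of the reported one, or, for the number of peaks, within 1.5-fold of it. A fold enrichment of at least 5 left 94 peaks past gene ends, turned the ratio of downstream to upstream density in same-strand gaps to 0.868, lowered the promoter peak ratio to 1.12 (0.134 to 4.16), where few promoter peaks remained, and raised the share overlapping a mouse antibody peak to 14.9%. When the threshold was applied only to the peaks past ends the promoter peak ratio was 3.14, an alternative added after the data were seen. Merging peaks within 1 kb lowered the gene end peak ratio to 5.04. A q-value under 0.001 raised the median fold enrichment to 4.77, as it removes weak peaks, and a window of 50 bp either side of the summit lowered the AP-1 share to 2.83%, as it searches less sequence.

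The number of peaks was 254 after merging, 313 with ends of basic transcripts and 362 when any gene end in the window counted. A gene start here is the outermost one, so a peak at an inner promoter is not a promoter peak, and with the start of any basic transcript the promoter peak ratio was 3.15 past all genes and 10.0 past short genes (added after the data were seen). No paired analysis was possible because the goat antibody replicates share 1 list.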
